A study of Mus musculus with 2 samples.

Results

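The miR-34 family consists of the mature miRNAs cut from 3 hairpins, mir-34a, mir-34b and mir-34c. Of the 717 mature miRNAs analysed, those named as an arm of one of these hairpins were taken, which gave 5 arms. They were mmu-miR-34a-5p, mmu-miR-34a-3p, mmu-miR-34b-5p, mmu-miR-34b-3p and mmu-miR-34c-5p, while mmu-miR-34c-3p was not analysed here, so that sums called the cluster or the family leave it out. The comparison asked whether the mir-34a locus and the mir-34b/34c cluster differed in the same way between tumor-associated macrophages (TAMs) and spleen macrophages (SMs).

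Small RNA was sequenced from 1 library of TAMs and 1 library of SMs of BALB/c mice. TAMs came from tumors of 4T1 cells, a mouse mammary carcinoma line, which had been injected into the mammary fat pad of 8-week-old female mice and harvested after 3 weeks, and they were selected with anti-CD11b beads, which also bind monocytes, neutrophils and NK cells. SMs came from naïve healthy mice. The study's BALB/c mice were females bought at 6 to 8 weeks of age. How macrophages were selected from the spleen and how many mice stood behind either library were not found in the sources used here. The deposited level of a mature miRNA is its TPM, the read count divided by the total of its library and multiplied by 1000000. That total was 13324721 reads in TAMs and 15422872 reads in SMs, so that a single read stood for 0.0750 TPM in the former and 0.0648 TPM in the latter. With 1 library per group there was no replicate check, so no difference between TAMs and SMs was tested and no p-value is given. The 95% intervals printed are exact and cover counting error only, which PCR copies can make too narrow.

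miR-34 miRNAs are known as direct transcriptional targets of p53, and they repress genes of the cell cycle and of survival. mir-34a is expressed in many tissues, whereas mir-34b and mir-34c are cut from a shared transcript that is known mainly from testis, lung and other epithelia with motile cilia. One arm of a hairpin is usually loaded into Argonaute as the guide strand, here the 5p arm of mir-34a, and the other is mostly degraded. A guide finds its targets mainly through its seed, bases 2 to 8 of the mature miRNA.

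The mature sequences are shown because the seed groups the family with miRNAs outside it. They are those of RefSeq on GRCm38.p6, written 5′ to 3′ with the seed in capitals, and each was identical to the deposited sequence of its name.
miR-34a-5p: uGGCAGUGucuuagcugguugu
miR-34b-5p: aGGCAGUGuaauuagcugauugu
miR-449a-5p: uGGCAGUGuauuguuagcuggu
miR-449c-5p: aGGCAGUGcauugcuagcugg
miR-34a-3p: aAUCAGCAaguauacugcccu
miR-34b-3p: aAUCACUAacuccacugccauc

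The seed GGCAGUG was shared by 5 miRNAs of the table, which were miR-34a-5p, miR-34b-5p, miR-34c-5p and, outside the family, miR-449a-5p and miR-449c-5p. No other miRNA of the table had the seed of miR-34a-3p or that of miR-34b-3p. miR-34b-5p and miR-34c-5p differed at only 2 of 23 bases, so reads could be split between them, and both counts are uncertain to that extent. miR-34a-5p differed from each of them at 11 of 22 bases when aligned from the 5′ end without gaps.

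Mir34a occupies 150068454 to 150068555 of chromosome 4 on GRCm38, plus strand. The last 17 bases of its hairpin overlapped an exon of Gm37795, a gene model still to be experimentally tested in GENCODE M21. Mir34c, from 51103034 to 51103110, and Mir34b, from 51103562 to 51103645, lie 451 bases apart on the minus strand of chromosome 9, in an intron of Btg4, a gene on the opposite strand. The Mir449a and Mir449c hairpins lie in introns of Cdc20b on chromosome 13, from 113037534 to 113037624 and from 113035983 to 113036091.

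miR-34a-5p was the only abundant arm of the family, and it was 5.16-fold higher in TAMs than in SMs (95% interval 4.59 to 5.82). It had 1529 reads in TAMs and 343 reads in SMs, which corresponded to 114.7 TPM (109.1 to 120.6) and 22.2 TPM (19.9 to 24.7). By abundance it ranked 116th in TAMs and 183rd in SMs. As background, 264 miRNAs reached 10 TPM in one library or both, of which 64 (24.2%) exceeded 2-fold in favor of TAMs and 86 (32.6%) in favor of SMs, both counted on TPM + 1. With totals of known miRNA reads less the 10 leading miRNAs of each library, 269 reached 10 TPM. Of these, 91 (33.8%) exceeded 2-fold in favor of TAMs and 53 in favor of SMs. miR-34a-5p was the single member of 5 that reached 10 TPM, and with a ratio of 4.98 on the scale of TPM + 1 it ranked 38th of the 264, 14.0% of which had a larger ratio. The median ratio of the 264 was 0.782 on the same scale, and 1.09 with the totals less the leading miRNAs, so that the direction of the center depended on the scaling.

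**Figure D1:**
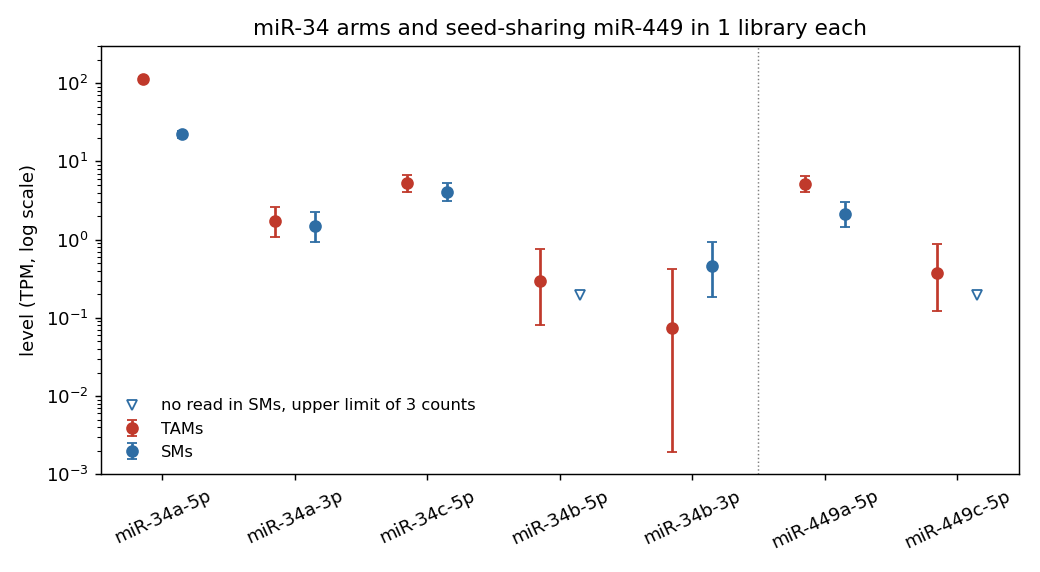
Level in TPM on a log axis of the 5 miR-34 arms and, right of the dotted line, of miR-449a-5p and miR-449c-5p, in the TAMs library (red) and the SMs library (blue). Bars are exact 95% counting intervals and open triangles mark the upper limit of 0.195 TPM for a miRNA with no read in SMs. The bars of TAMs and SMs are apart for miR-34a-5p and miR-449a-5p, and they overlap for miR-34a-3p, miR-34c-5p and miR-34b-3p.

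The other arm of the same hairpin did not show this excess. miR-34a-3p, the passenger strand, had 23 reads in TAMs and 23 reads in SMs. Its level was 1.73 TPM (1.09 to 2.59) in TAMs and 1.49 TPM (0.945 to 2.24) in SMs, with a ratio of 1.16 (0.621 to 2.16). The interval contained equal levels and, at its upper end, an excess of 2.16-fold, below the lower bound of 4.59 of miR-34a-5p. Both arms of the mir-34a locus together summed to 116.5 TPM in TAMs against 23.7 TPM in SMs, with a ratio of 4.91 (4.38 to 5.52).

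The 2 arms are shown in capitals within the Mir34a hairpin (chr4:150068454-150068555, plus strand, RefSeq on GRCm38.p6), miR-34a-5p on the left and miR-34a-3p on the right of the loop.
Mir34a: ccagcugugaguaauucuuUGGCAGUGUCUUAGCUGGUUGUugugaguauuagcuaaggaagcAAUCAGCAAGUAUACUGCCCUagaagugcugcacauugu

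Within a library the total cancels, so that the ratio of the arms does not depend on the scaling. TAMs held 66.5 reads of miR-34a-5p for each read of miR-34a-3p, and SMs held 14.9. The ratio of the arms was therefore 4.46-fold higher in TAMs (95% interval 2.36 to 8.41), with 23 reads of the passenger in either library setting the width of the interval. This comparison was chosen after its values were seen. Among 87 hairpins with at least 20 reads of each arm in both libraries, the ratio of 5p to 3p differed at least 2-fold between TAMs and SMs in 23 (26.4%). The change of mir-34a, 2.16 on the log2 scale, was the second largest of the 87 in size after that of mir-467d, at 2.43, and the median of the 87 was −0.01. With a minimum of 10 reads it ranked 4th of 104 hairpins, and with a minimum of 50 reads it was left out, as its passenger had 23. The 5.37-fold change of mir-467d lay within the interval of mir-34a, 2.36 to 8.41, so counting error leaves its exact rank unresolved. The 3p counts of mir-467a and mir-467d were equal, at 87 reads in TAMs and 294 in SMs, as were those of mir-669a and mir-669o. These hairpins were all among the 23 past 2-fold, and they may share 3p reads. The change of mir-467d may therefore not be its own, and the 87 hairpins were not all separate measurements.

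**Figure D2:**
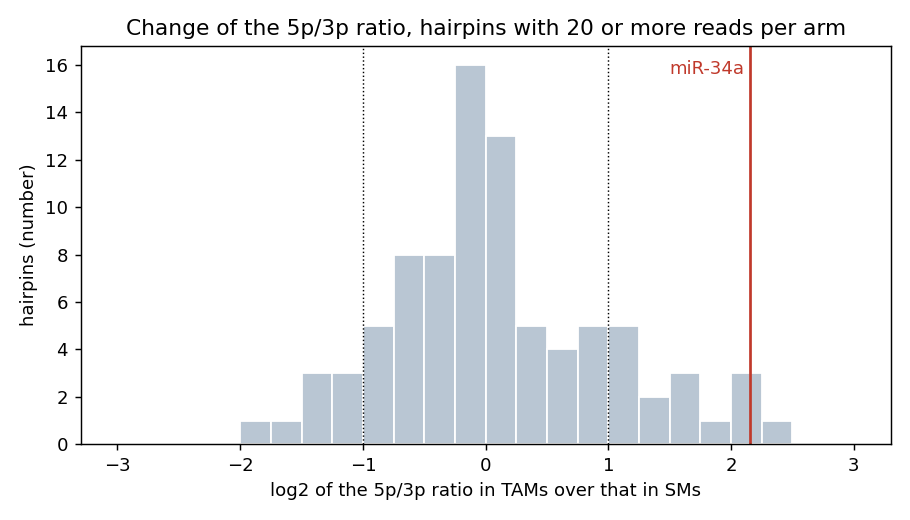
Number of hairpins (vertical axis) by the log2 of the 5p/3p ratio in TAMs over that in SMs (horizontal axis), for 87 hairpins with at least 20 reads of each arm in both libraries. Dotted lines mark a 2-fold change either way and the red line mir-34a at 2.16, near the right end of the distribution.

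The mir-34b/34c cluster was scarce in both libraries, and with the authors' totals no difference between TAMs and SMs was detectable at this depth. miR-34c-5p, the main arm of the cluster, had 70 reads in TAMs and 63 reads in SMs. Its level was 5.25 TPM (4.10 to 6.64) in TAMs and 4.08 TPM (3.14 to 5.23) in SMs, with a ratio of 1.29 (0.902 to 1.84). It ranked 292nd in TAMs and 298th in SMs, little above the median level of the miRNAs with a read, which was 3.26 TPM in TAMs and 2.98 TPM in SMs.

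miR-34b-5p had 4 reads in TAMs and no read in SMs, where up to 0.195 TPM, the level of 3 counts, would remain possible. Its 0.300 TPM in TAMs was 1.54 times the level of 3 counts, and the exact interval of the ratio began at 0.764 and so contained equal levels. miR-34b-3p, the opposite arm, went the other way in number, with 1 read in TAMs and 7 reads in SMs. Its ratio of 0.165 had an interval of 0.0037 to 1.29, which also contained equal levels. Within SMs, all 7 reads of mir-34b were miR-34b-3p (100%, exact Clopper-Pearson interval 59.0 to 100%). Within TAMs, 1 of 5 was (20%, 0.505 to 71.6%).

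The hairpin of Mir34b (chr9:51103562-51103645, minus strand, RefSeq on GRCm38.p6) is shown with miR-34b-5p and miR-34b-3p in capitals, since it is the hairpin whose arms differed in number in opposite directions.
Mir34b: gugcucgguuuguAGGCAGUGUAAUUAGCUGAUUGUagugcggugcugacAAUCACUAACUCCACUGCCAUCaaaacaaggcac

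Summed over its 3 measured arms, the cluster had 75 reads (5.63 TPM) in TAMs and 70 reads (4.54 TPM) in SMs. The ratio of the sums was 1.24 (0.883 to 1.74). Counting error alone thus leaves room for a change between 0.883-fold and 1.74-fold, but not for the 5.16-fold excess of miR-34a-5p. With totals of known miRNA reads in place of the authors' totals the ratio was 1.48 (1.05 to 2.08), an interval that no longer contained equal levels.

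**Figure D3:**
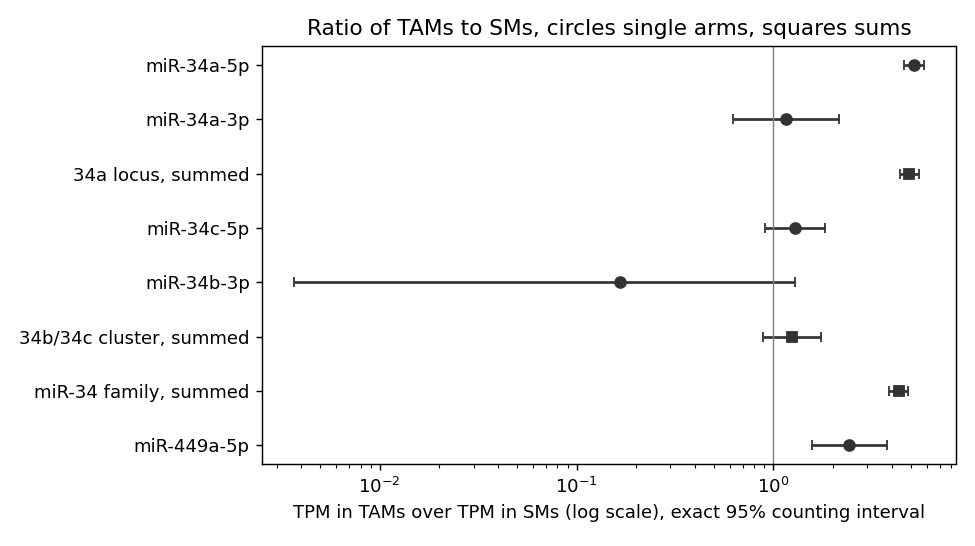
Ratio of TPM in TAMs to TPM in SMs on a log axis, with exact 95% counting intervals, for single arms (circles) and sums (squares). miR-34a-5p, at 5.16, stands right of equal levels (vertical line), while the intervals of miR-34a-3p, miR-34c-5p, miR-34b-3p and the summed 34b/34c cluster cross that line.

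Within the family, mir-34a took a larger part of the reads in TAMs than in SMs. For each read of the mir-34b/34c cluster there were 20.7 reads of the mir-34a locus in TAMs and 5.23 in SMs, a 3.96-fold difference (95% interval 2.76 to 5.67). The difference was 3.80-fold (2.61 to 5.50) with the 5p arms only and 3.82-fold (2.62 to 5.55) with mir-34b left out. The mir-34a locus gave 95.4% (94.3 to 96.4%) of the 1627 reads of the family in TAMs and 83.9% (80.2 to 87.3%) of the 436 reads in SMs, with exact Clopper-Pearson intervals. The share of miR-34c-5p was 4.30% (3.37 to 5.40%) in TAMs and 14.4% (11.3 to 18.1%) in SMs. All 5 arms summed to 122.1 TPM in TAMs against 28.3 TPM in SMs, with a ratio of 4.32 (3.88 to 4.81), and miR-34a-5p alone gave 1529 of the 1627 reads in TAMs.

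The miR-449 miRNAs, known from multiciliated cells, carry the same seed and were also scarce. miR-449a-5p had 69 reads (5.18 TPM) in TAMs and 33 reads (2.14 TPM) in SMs, with a ratio of 2.42 (1.58 to 3.78). miR-449c-5p had 5 reads in TAMs and none in SMs, and its level of 0.375 TPM was 1.93 times that of 3 counts in SMs, with an exact interval of the ratio that began at 1.06. miR-449a-3p had 4 reads in TAMs and 3 reads in SMs.

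The ratio of miR-34a-5p was 2.13-fold that of miR-449a-5p (1.34 to 3.33), and the ratio of miR-449a-5p was 1.88-fold that of miR-34c-5p (1.06 to 3.34). Over the 5 miRNAs with the seed GGCAGUG, the sum was 125.9 TPM in TAMs against 28.5 TPM in SMs, with a ratio of 4.42 (3.98 to 4.92). miR-34a-5p supplied 91.2% (89.7 to 92.5%) of these reads in TAMs and 78.1% (74.0 to 81.9%) in SMs. In both libraries the seed was thus carried mostly by the product of one locus.

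**Figure D4:**
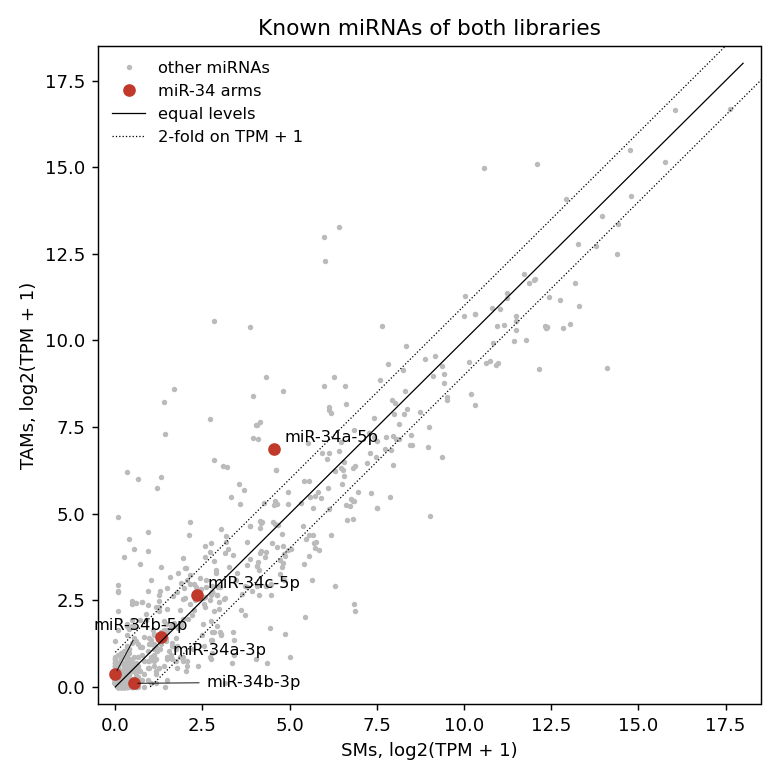
Level of each known miRNA on the log2(TPM + 1) scale in SMs (horizontal axis) and TAMs (vertical axis), with the 5 miR-34 arms in red, the solid line at equal levels and dotted lines at 2-fold. miR-34a-5p lies above the upper dotted line, and the other 4 arms lie between the dotted lines at the low end of both axes.

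Other miRNAs reported as induced by p53, or processed more in its presence, differed in both directions, in shares near those of all miRNAs. Of 11 listed, 10 were analysed and 8 reached 10 TPM in one library or both. Of these 8, 2 exceeded 2-fold in favor of TAMs, 3 in favor of SMs and 3 did neither, beside the 24.2% higher and 32.6% lower of all miRNAs. Of the 3 in favor of SMs, miR-16-1-3p reached 10 TPM in SMs only, so the filter favored this direction for it. The median ratio of the 8 was 1.14 on the scale of TPM + 1, beside 0.782 over all 264.

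Both that were higher, miR-141-3p and miR-200c-3p, come from a cluster of epithelial cells that holds back the epithelial-mesenchymal transition. miR-141-3p had 1364 TPM in TAMs against 199 TPM in SMs, a ratio of 6.85 (6.59 to 7.12), and miR-200c-3p had a ratio of 5.32 (4.49 to 6.34). The 3 lower ones were miR-192-5p, at 651 TPM (TAMs) and 2007 TPM (SMs), its cluster partner miR-194-5p, with a ratio of 0.380, and miR-16-1-3p, the passenger of a hairpin lost in B cell leukemia, with a ratio of 0.153. miR-107-3p had a ratio of 1.85 (1.78 to 1.92), miR-143-3p one of 0.987 and miR-145a-5p one of 1.35. The lists overlap, since miR-141-3p and miR-200c-3p are also among the epithelial markers below, and miR-143-3p and miR-145a-5p among the stromal ones.

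Markers of other cell types differed between these libraries in the same direction as miR-34a-5p or against it. These lists were chosen with earlier results of these data known. Of 8 epithelial markers listed, the 7 that reached 10 TPM all exceeded 2-fold in favor of TAMs, beside 24.2% of all 264 miRNAs. The other marker, miR-375-3p, was under 10 TPM in both libraries, with a ratio of 1.66 (1.12 to 2.48). Of the 7, miR-200a-3p, miR-429-3p and miR-205-5p reached 10 TPM in TAMs only, so the filter favored this direction for them. The 7 are not independent, since miR-141-3p and miR-200c-3p come from the same cluster. The 8 together summed to 1902 TPM in TAMs and 287 TPM in SMs. miR-205-5p, which marks basal and stratified epithelia, had 384 reads in TAMs and 1 read in SMs, and the lowest ratio of the 7 was that of miR-203-3p, at 2.90 (2.66 to 3.18). The 4 leukocyte miRNAs, arms of mir-142 and mir-223, were all more than 2-fold lower in TAMs, beside 32.6% of all 264. They summed to 7752 TPM in TAMs and 34561 TPM in SMs.

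Of 3 stromal markers with at least 10 TPM, miR-199a-3p was higher, with a ratio of 12.1 (10.6 to 13.9), and the other 2 were within 2-fold. The remaining stromal marker, miR-214-3p, was under 10 TPM in both libraries. It had 61 reads in TAMs and 6 reads in SMs, with a ratio of 11.8 (5.11 to 33.3). Both lymphocyte markers and all 3 red blood cell markers were lower in TAMs by more than 2-fold, beside 32.6% of all 264 miRNAs. Of these, miR-144-3p, a red blood cell marker, reached 10 TPM in SMs only, so the filter favored this direction for it. The part of tumor, stromal or other cells in the excess of miR-34a-5p was not tested. The number of cells that express a miRNA and its level per cell cannot be told apart in these bulk libraries.

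The miRNAs whose levels were closest to those of miR-34a-5p were sought by Euclidean distance on log2(TPM + 1) over both libraries. They were miR-6240, at a distance of 0.54 with 142.3 TPM in TAMs and 16.1 TPM in SMs, and miR-669a-5p and miR-669p-5p, at a distance of 0.61 each. The last 2 had equal counts of 1002 reads in TAMs and 361 reads in SMs, so they may be the same reads under 2 names. Those closest to miR-34c-5p were miR-190b-5p, with 62 reads in TAMs and 60 reads in SMs, miR-145a-3p, with 66 and 73 reads, and miR-467e-5p, with 82 and 69 reads. With 2 libraries such closeness describes levels only.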

How the data were processed

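Small RNA libraries of TAMs and SMs, 1 per group by the sample labels, were compared. The authors matched reads to known mature mouse miRNAs, with variants of 2 bases added to the database per the file header, and deposited read counts. The authors also deposited TPM, which is the count over the total of its library, not corrected for length. Bowtie2 is named in the submitters' processing notes, while its version, the build and the release of the miRNA database were not given in the sources used here. Reads of known miRNAs were 7333652 in TAMs and 10108834 in SMs, 55.0% and 65.5% of the totals. For a miRNA without a read, 3 counts were taken as the upper limit (0.225 TPM in TAMs, 0.195 TPM in SMs). The deposited table also holds a chi-square p-value, a ratio and a mark for the comparison, which were not used, and 2 lines were not analysed here.

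Ratios of TPM were given exact conditional binomial 95% intervals, ratios of ratios exact conditional intervals of the odds ratio, and shares Clopper-Pearson intervals, with scipy 1.17.1 in Python 3.11.15 (pandas 2.3.3, numpy 2.4.6), and plots were drawn in matplotlib 3.10.9. miRNAs past 2-fold were counted on TPM + 1 among those that reached 10 TPM in one library or both, a pseudocount that understates the change of low miRNAs. The calculations were tested on simulated Poisson counts with known ratios, which hold no PCR copies and no replicate spread, so this checks the arithmetic only. Alternatives were 4 scalings (2 of them from edgeR 4.0.16 and DESeq2 1.42.0 in R 4.3.3), other pseudocounts, filters and folds, and other choices of arms. The miRNAs named were all arms of the family, miRNAs sharing their seed, the 3 nearest in level to miR-34a-5p and to miR-34c-5p, and examples from a list of p53-linked miRNAs and 6 lists of cell type markers. The members and lists were chosen with earlier results of these data known. Positions and overlaps come from RefSeq and GENCODE M21 on GRCm38.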

Additional observations from a re-analysis of the deposited data

How the results depend on the processing

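No paired analysis was possible because there was a single library of TAMs and of SMs. The ratio of miR-34a-5p, 5.16, was 6.14 with totals of known miRNA reads, 7.27 with such totals less the 10 leading miRNAs of each library and 3.87 on TPM + 10, and that of the summed family, 4.32, was 5.14, 6.08 and 3.45 in the same order. The ratio of the summed mir-34b/34c arms, 1.24, was 1.75 (1.24 to 2.46) with totals less the leading miRNAs. A scaling multiplies every ratio by a single factor, from 1.05 to 1.41, so it leaves the 3.96-fold difference between the loci as it was. The counts past 2-fold were 64 in favor of TAMs and 86 in favor of SMs, of 264 miRNAs. They were 102 and 115 of 717 with no filter, 34 and 48 of 140 at 100 TPM, and 42 and 22 of 264 at 4-fold. With totals less the leading miRNAs they were 91 and 53 of 269. Of only the miRNAs past 2-fold, 63.2% then favored TAMs, against 42.7% with the authors' totals. Totals less the leading miRNAs shift every log2 ratio of TPM by 0.49, and totals of known miRNA reads by 0.25. Of only the miRNAs past 4-fold, 65.6% favored TAMs. Of 44 alternative values, 31 stayed within the counting interval or within 1.5 times the count. Of the settings, neither the minimum of 20 reads per arm nor that of 10 was fixed before the data were seen. Depth limits the 4 scarce arms, whose counting intervals all contained equal levels with the authors' totals.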
